A study of Mus musculus with 4 samples.

Results

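The genes of the tumour necrosis factor (TNF) superfamily and of its receptors were followed in polyadenylated RNA from mouse lung cells. Members were taken by symbol, as the genes named Tnfsf or Tnfrsf with a number, together with Tnf, Lta, Ltb, Ltbr, Fas, Fasl, Cd27, Cd40, Cd40lg, Cd70, Ngfr, Eda2r and Edar. The rule found 44 of the 39056 genes in the count table, 17 ligand genes and 27 receptor genes. The 4 libraries, 1 for each label, came from S1PR1-GFP reporter mice, in which green fluorescent protein marks expression of the sphingosine-1-phosphate receptor S1PR1. One library is labelled No LPS, and the others 8h/LPS, 16h/LPS and 20h/LPS, for lipopolysaccharide given into the peritoneum at 10 mg/kg. The hours are used here as labels, since the protocol can be read as times after one injection or as times of injection. All 4 labels share the reporter and the sort, for cells carrying the reporter and CD31 but lacking CD45. The labels give no strain, age or sex, and do not say whether a library pooled animals. The LPS agent is a bacterial endotoxin that activates Toll-like receptor 4, and the series concerns the recovery of lung vessels.

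Ligands of this family are mostly membrane proteins that act as trimers, and some are released by proteases. Receptors with an intracellular death domain bind adaptors such as TRADD and FADD, and some can start apoptosis or necroptosis. Others bind TRAF proteins and activate NF-kB and stress kinases, an output that death domain receptors can also have. A further group, the decoy receptors, binds ligand without signalling for death. In the lung, TNF released during endotoxin exposure acts on endothelium through the receptors encoded by Tnfrsf1a and Tnfrsf1b, and raises adhesion molecules and chemokines.

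Before any member is described, the libraries themselves need 1 account. Totals lay between 27566454 and 28905776 reads, and 11803 genes reached 1 CPM (reads relative to library totals scaled by edgeR's TMM factors) in at least 1 library; these are called measured. A gene with 0 reads could have stood at up to 0.108 CPM in the smallest library (3 reads). The defining markers went against the sort. Of 15 endothelial markers 3 were measured (Egfl7, Eng and Flt1), Erg, Emcn and Cldn5 had 0 reads everywhere, and Pecam1, the gene of CD31, had at most 7 reads. The summed level of the endothelial list lay between 70.2 and 91.1 CPM, most of it from Eng. All 4 mesenchymal markers were measured, at 2610 to 3140 CPM in sum. Of the leukocyte list 6 of 8 were measured, at 8.92 to 10.6 CPM in sum. No T cell, B cell or lung epithelial marker was measured, and 5 of 6 T cell markers and 2 of 4 B cell markers had 0 reads. A library is therefore named below by its label only. Mitochondrial transcripts took 1.36% to 1.90% of the reads, least in the library labelled 8 h and most in that labelled 20 h. In such bulk RNA, fewer cells of a type and less RNA per cell cannot be told apart.

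With 1 library per label no difference between labels has a replicate check. In what follows a run of 4 values without further labels stands for the libraries without LPS and at 8, 16 and 20 h. Folds are ratios of scaled reads, given with a 95% counting interval (exact conditional binomial), which covers counting error only. A gene is called higher or lower when the fold is at least 2, the interval excludes 1 and the higher library reaches 1 CPM. This is a rule of size and not a test of LPS.

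Receptors made up nearly all of the family's reads and ligands were close to absent. Of the 27 receptor genes 14 were measured, 8 had reads below that level and 5 had none. Of the 17 ligand genes 2 were measured, Tnfsf9 and Tnfsf12, 11 had a few reads and 4 had none. The receptors summed to 485, 393, 401 and 493 CPM, and the ligands to 8.28, 9.30, 7.65 and 9.46 CPM. The receptor sum was thus lower in the libraries labelled 8 h and 16 h, and the ligand sum followed no such order. Most of that difference lay in Eda2r (126, 81.9, 84.3 and 125 CPM) and Tnfrsf10b (97.2, 71.6, 71.8 and 93.9 CPM). Tnfrsf1a, Tnfrsf21 and Tnfrsf11a were higher in the same libraries. All members together took 0.0400% to 0.0504% of the reads.

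**Figure D1:**
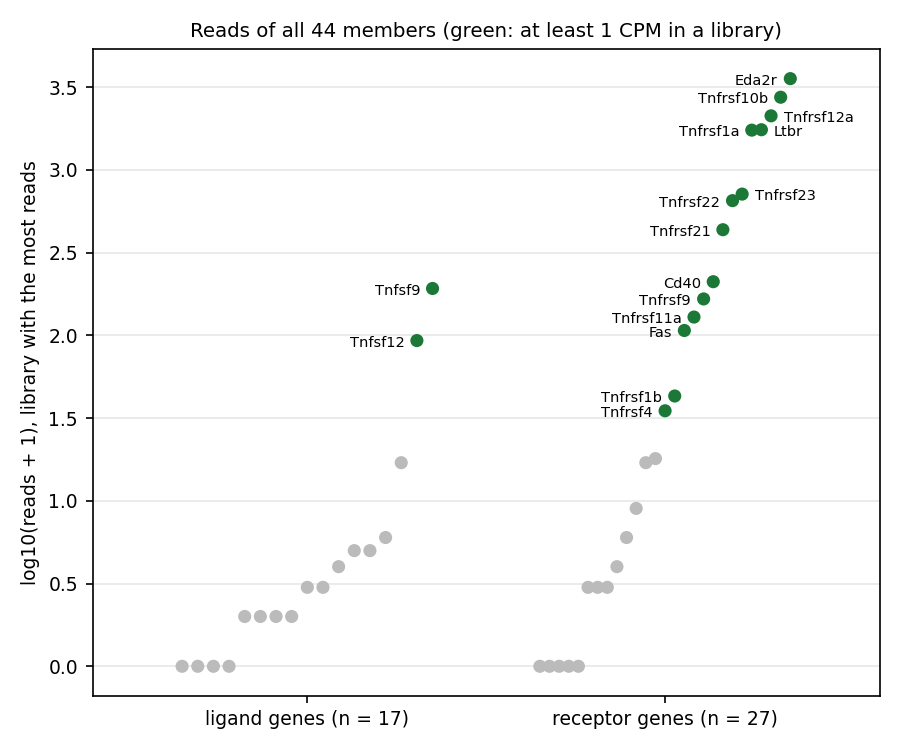
Reads of all 44 members. Each point is 1 gene, placed by log10 of its reads plus 1 in the library where it had most, with ligand genes on the left and receptor genes on the right, ordered by height within each side; green points reached 1 CPM in at least 1 library. Only 2 of 17 ligand genes are green, against 14 of 27 receptor genes.

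Most ligands known from activated lymphocytes and myeloid cells stood at or near the limit of detection. Tnf itself had 0, 1, 3 and 3 reads. Lta, which encodes lymphotoxin alpha, had 1, 2, 0 and 1 reads, and Ltb, its membrane partner, 1, 1, 0 and 2. These 3 neighbours lie within a stretch of chromosome 17 from 35194439 to 35205351 (mm10). Fasl, the ligand of the Fas death receptor, had 0, 1, 1 and 1 reads, and Tnfsf10, which encodes the death ligand TRAIL, had 1 read at 8 h and none elsewhere. Tnfsf11, which encodes RANKL, the driver of osteoclast formation, had 1, 1, 1 and 4 reads. Tnfsf13b, which encodes the B cell survival factor BAFF, had 5, 4, 5 and 2 reads, and Tnfsf13, which encodes its relative APRIL, 1, 4, 4 and 2. Of the 50-base stretches in Tnfsf13 transcripts 57.3% also occur in Tnfsfm13, its read-through with Tnfsf12, so the level of Tnfsf13 is uncertain. Tnfsf18, the ligand of GITR, had 7, 16, 13 and 12 reads, 2.25-fold at 8 h with an interval of 0.876 to 6.47. Tnfsf15 and Tnfsf8 had at most 1 read in any library. Cd40lg, Cd70, Tnfsf14 and Tnfsf4, costimulatory ligands of lymphocytes and antigen-presenting cells, had 0 reads in all 4 libraries. At these counts a difference between labels was not detectable.

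Of the ligands that were measured, 1 was called. Tnfsf9, the ligand of the costimulatory receptor CD137, had 172, 142, 108 and 191 reads. It was lowest at 16 h, at 3.90 CPM against 6.09 CPM without LPS, a fold of 0.641 (0.499 to 0.819), and was not called in any comparison. Its exons share 192 bases with Gm11110 on the opposite strand, which had 32, 23, 21 and 34 reads. The sources used here do not say whether counting used strand, so reads of these overlapping genes are uncertain. Tnfsf12, which encodes TWEAK, a cytokine of tissue repair and angiogenesis, had 44, 92, 77 and 44 reads. Both middle labels were higher than the outer ones, and at 8 h Tnfsf12 was called higher, at 2.06-fold (1.42 to 3.02) and 3.20 CPM against 1.56 CPM. At 16 h it was 1.79-fold (1.22 to 2.65) and not called. Of the 50-base stretches in its transcripts 46.8% also occur in Tnfsfm13, a read-through of Tnfsf12 and Tnfsf13 that had 1, 1, 4 and 2 reads. How reads shared by such genes were assigned is not known here, so the level of Tnfsf12 is uncertain too.

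A list of 24 known ligand and receptor pairs was used, which is not complete and leaves out the TRAIL decoys Tnfrsf22 and Tnfrsf23. Of the listed pairs 2 had both genes measured: Tnfsf9 with Tnfrsf9, and Tnfsf12 with Tnfrsf12a. In 11 listed pairs the receptor alone was measured, and in 11 neither gene was. Within the first pair, Tnfrsf9 was called lower at 8 h and 16 h, while the fold of Tnfsf9 was 0.813 (0.646 to 1.02) at 8 h, an interval that includes 1, and 0.641 (0.499 to 0.819) at 16 h, neither called. Within the other, Tnfsf12 stood higher at 8 h and 16 h while Tnfrsf12a varied by 1.19-fold over all 4 libraries.

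**Figure D2:**
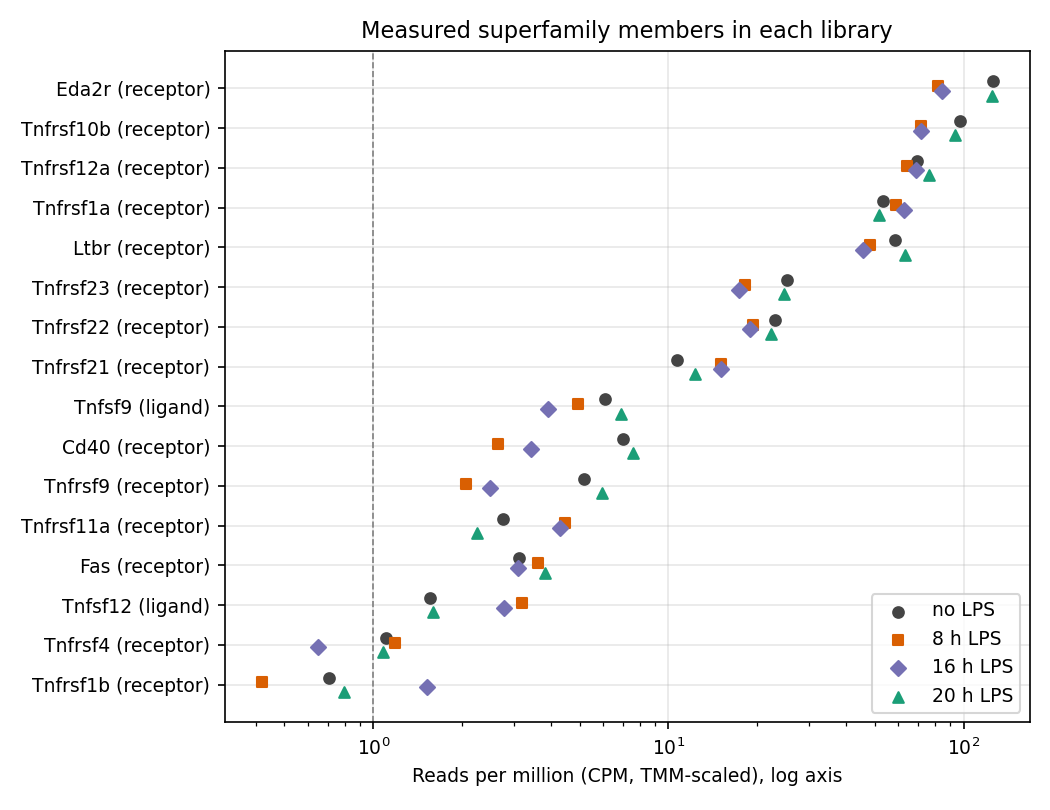
Levels of the 16 measured members. Each row is 1 gene, ordered by mean level, and each point 1 library, with CPM on a log axis and a dashed line at 1 CPM. Cd40 and Tnfrsf9 are separated into a low pair (8 h and 16 h) and a high pair (no LPS and 20 h), while the 4 points of Tnfrsf12a lie between 64.4 and 76.6 CPM.

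Levels of different genes were compared per length, as RPKM (CPM per kilobase of exon). Tnfrsf12a led, with a mean of 36.1 RPKM over the 4 libraries, which put it at percentile 88.7 of the measured genes. Ltbr followed at 22.9 RPKM (19.5 to 26.8 over the libraries), Tnfrsf1a at 21.9 (20.0 to 24.2), Eda2r at 17.7 (13.9 to 21.4) and Tnfrsf10b at 15.3 (13.1 to 17.8). The ranges of Ltbr and Tnfrsf1a overlapped, as did those of Eda2r and Tnfrsf10b, while the lowest value of Tnfrsf12a, 33.3, lay above every value of the others. Tnfrsf23 and Tnfrsf22 formed the next group at 5.39 and 4.95 RPKM, with Tnfsf9 at 4.23 and Tnfrsf21 at 3.24. Fas, Cd40, Tnfsf12 and Tnfrsf9 lay close together, between 1.44 and 1.66 RPKM. Tnfrsf4 at 0.735, Tnfrsf11a at 0.574 and Tnfrsf1b at 0.225 RPKM were the lowest, and Tnfrsf1b stood at percentile 2.48 of the measured genes.

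Cd40 and Tnfrsf9 were lower in the libraries labelled 8 h and 16 h than in the other pair. They were the only members called in more than 2 of the 5 comparisons, which share libraries and are not independent. CD40 is the receptor through which helper T cells activate antigen-presenting cells, and Tnfrsf9 encodes CD137, an inducible costimulatory receptor; both bind TRAF proteins. Cd40 (chromosome 2, 165055627 to 165072948, plus strand, mm10, protein coding) had 198, 76, 95 and 210 reads. Tnfrsf9 (chromosome 4, 150914562 to 150946102, plus strand, protein coding) had 146, 59, 69 and 165 reads. In both genes the libraries labelled 8 h and 16 h were low and the other pair was high. Cd40 stood at 2.65 CPM at 8 h against 7.01 CPM without LPS, a fold of 0.378 (0.286 to 0.495), and Tnfrsf9 at 2.06 against 5.17 CPM, a fold of 0.398 (0.289 to 0.542). At 16 h the folds were 0.489 (0.379 to 0.628) for Cd40 and 0.482 (0.357 to 0.646) for Tnfrsf9. Both genes were called lower at 8 h and at 16 h. At 20 h neither was called against no LPS, at 1.08-fold (0.887 to 1.32) and 1.15-fold (0.918 to 1.45). Against the library labelled 16 h, that labelled 20 h was higher in both, 2.21-fold (1.73 to 2.85) for Cd40 and 2.39-fold (1.80 to 3.22) for Tnfrsf9.

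Some other transcripts were also lower in the middle libraries. Of 8 fibroblast markers 3 were measured, none was at 0 in all libraries, and they summed to 212, 117, 122 and 203 CPM. Col3a1, a fibrillar collagen gene, had 4735, 2349, 2305 and 4505 reads and Dcn, which encodes the proteoglycan decorin, 268, 85, 95 and 214, while Pdgfra, the PDGF receptor gene of fibroblasts, had 963, 900, 954 and 880. The 7 macrophage markers summed to 118, 94.6, 90.4 and 118 CPM, most of it from Cd68, while other genes of that list, Adgre1 and Csf1r among them, took another course (values with Tnfrsf1b). Of 4 neutrophil markers 1 was measured, S100a8, with 34, 6, 7 and 25 reads, and the list summed to 0.348 to 1.24 CPM. The mitochondrial share of reads was 1.80%, 1.36%, 1.40% and 1.90%. The part of these in the Cd40 and Tnfrsf9 differences was not tested.

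Since Tnfrsf9 and Tnfrsf1b were called, the bases just before their RefSeq transcription starts (GRCm38.p6, the same build as mm10) are shown, with those of Tnfrsf12a, the most abundant member per length, for contrast. The table of RefSeq windows held 34 of the 44 members and 11 of the 16 measured ones, in 12 windows of 250 bases; Cd40, Tnfrsf10b, Tnfrsf22, Tnfsf9 and Tnfsf12 had no entry. Capitals mark matches on either strand to the GC box GGGCGG, the AP-1 site TGANTCA, the TATA box TATAAA, the NF-kB consensus or the p53 half-site, which may overlap. Stretches that GENCODE annotates as exon were left out, except in 1 site of 30 bases around the NF-kB match. The windows lie at chr4:150919905-150920154 (Tnfrsf9, plus strand), chr4:150927947-150927976 (site before a second Tnfrsf9 start, plus strand), chr4:145246871-145247120 (Tnfrsf1b, minus strand) and chr17:23677469-23677699 (Tnfrsf12a, minus strand).
Tnfrsf9: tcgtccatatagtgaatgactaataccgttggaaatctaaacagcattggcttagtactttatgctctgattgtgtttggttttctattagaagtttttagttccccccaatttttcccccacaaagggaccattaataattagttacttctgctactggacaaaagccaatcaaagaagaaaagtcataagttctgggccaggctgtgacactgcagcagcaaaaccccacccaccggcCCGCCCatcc
Tnfrsf9, site before another start: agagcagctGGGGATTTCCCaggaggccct
Tnfrsf1b: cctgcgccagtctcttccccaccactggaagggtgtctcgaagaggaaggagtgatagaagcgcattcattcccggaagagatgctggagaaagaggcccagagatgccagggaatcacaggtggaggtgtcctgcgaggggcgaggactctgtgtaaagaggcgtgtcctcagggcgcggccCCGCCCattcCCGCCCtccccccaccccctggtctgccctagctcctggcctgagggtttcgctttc
Tnfrsf12a: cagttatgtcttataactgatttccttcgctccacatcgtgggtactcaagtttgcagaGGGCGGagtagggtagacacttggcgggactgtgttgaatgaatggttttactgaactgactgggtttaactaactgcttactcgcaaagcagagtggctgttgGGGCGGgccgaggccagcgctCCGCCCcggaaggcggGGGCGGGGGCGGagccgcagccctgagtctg

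The first Tnfrsf9 window held a single GC box, on the strand opposite to the gene. The other start of Tnfrsf9 had a run with 2 overlapping matches to the NF-kB consensus, the first beginning 43 bases before the start. That window was the only one of the 12 from measured members with such a match, against 7.25% of all 32851 windows. The AP-1 site was found in 2 of the 12 windows, those of Fas and of the same Tnfrsf9 start, against 6.75% of all windows. The GC box was found in 9 of 12 windows, against 32.7% of all, and the Tnfrsf12a window carried 5 of them in full. The Tnfrsf1b window held a pair of them, on the strand opposite to the gene. None of the 12 held a p53 half-site (7.13% of all), and the TATA box was in 2, those of Eda2r and Tnfrsf23 (12.4% of all). The median number of CG dinucleotides was 10 in the windows of measured members, 6.5 in the 26 windows of the other members and 16 in those of all measured genes. The windows of all measured genes had a median GC of 60.0%, against 52.4% in all windows. Motifs were not counted among measured genes alone, so the shares given do not compare the members with other measured genes. The motifs are letter matches in short windows, and binding was not measured.

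Tnfrsf1b followed another course. It encodes the TNF receptor TNFR2, which lacks a death domain and is found mainly on leukocytes and endothelium. It had 20, 12, 42 and 22 reads, so that the 16 h library was high and the others were low. It passed 1 CPM in the 16 h library alone, at 1.52 CPM, and was called higher there at 2.14-fold (1.23 to 3.85) against no LPS and 3.63-fold (1.87 to 7.57) against 8 h. The call against no LPS was lost with a wider counting interval, and that against 8 h was kept. Of the macrophage markers, Adgre1 and Csf1r were also highest at 16 h, while Cd68 was lowest there. Csf1r stayed nearly as high at 20 h, unlike Tnfrsf1b. Adgre1, which encodes F4/80, had 12, 31, 77 and 24 reads and Csf1r, the receptor gene for the macrophage growth factor CSF1, 9, 15, 30 and 26. Of the 7 macrophage markers 5 were measured, none was at 0 in all libraries, and their summed level ran from 90.4 CPM at 16 h to 118 CPM without LPS and at 20 h, most of it from Cd68 (2818, 1910, 1718 and 2675 reads). At 16 h against no LPS 2 of the 5 were called higher and 3 were not called, where 4.13% of all measured genes were higher. The part of these transcripts in the Tnfrsf1b difference was not tested.

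Of the 7 death domain receptors 4 were measured, and none of these was called. Tnfrsf1a, the main TNF receptor of non-immune cells, had 1507, 1696, 1738 and 1432 reads. It was slightly higher in the middle libraries, by 1.11-fold (1.03 to 1.19) at 8 h and 1.18-fold (1.10 to 1.26) at 16 h. Tnfrsf21, which encodes death receptor DR6, had 302, 434, 419 and 342 reads, 1.41-fold (1.22 to 1.64) at 8 h and 1.42-fold (1.22 to 1.65) at 16 h. Fas had 88, 104, 86 and 106 reads, and its interval against no LPS included 1 at all 3 labels. Tnfrsf10b, the mouse receptor for TRAIL that can signal death, went the other way, with 2748, 2055, 1988 and 2600 reads and a fold of 0.736 (0.695 to 0.780) at 8 h and 0.738 (0.696 to 0.782) at 16 h. Of its 50-base stretches 6.21% occur in other genes' transcripts. Tnfrsf25 had 3, 3, 2 and 3 reads, Ngfr had 2 reads at 8 h and none elsewhere, and Edar had none.

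The decoy receptors for TRAIL lay on the same side as Tnfrsf10b. Tnfrsf22 had 651, 556, 524 and 616 reads, and Tnfrsf23 had 713, 523, 478 and 683. At 8 h the folds were 0.841 (0.749 to 0.943) for Tnfrsf22 and 0.722 (0.644 to 0.810) for Tnfrsf23, neither called. These neighbours on chromosome 7 (143634806 to 143649661 and 143665809 to 143685872, minus strand) are close copies. Of the 50-base stretches of Tnfrsf22 17.3% occur in Tnfrsf23, and 18.0% of those of Tnfrsf23 occur in Tnfrsf22. Over all other genes the shares are 27.4% for Tnfrsf22 and 19.3% for Tnfrsf23, so part of their reads is uncertain. Tnfrsf23 also shares 164 exon bases with a gene on the opposite strand. The third gene of the cluster, Tnfrsf26, had 17, 11, 13 and 9 reads and stayed under 1 CPM. Tnfrsf11b, which encodes osteoprotegerin, the soluble decoy for RANKL, had 0 reads in all 4 libraries.

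The remaining TRAF-binding receptors were mixed. Eda2r, a receptor for ectodysplasin A2 and a known p53 target, had the most reads of all members: 3560, 2351, 2335 and 3469. Its folds of 0.650 (0.617 to 0.685) at 8 h and 0.669 (0.635 to 0.705) at 16 h fell short of the rule of size. Eda, the gene of its ligand, lies outside the symbol rule and had 0 reads. Ltbr, the lymphotoxin beta receptor that organises lymphoid tissue, had 1655, 1381, 1270 and 1748 reads, 0.821-fold (0.764 to 0.883) at 8 h. Tnfrsf12a, which encodes Fn14, the TWEAK receptor induced in injured tissue, had 1959, 1848, 1906 and 2121 reads and was the steadiest member, with 1.19-fold between its highest and lowest CPM. Tnfrsf11a, which encodes RANK, had 78, 128, 119 and 62 reads, so that the middle libraries were higher, at 1.62-fold (1.21 to 2.17) and 1.56-fold (1.16 to 2.10), without reaching the threshold. Tnfrsf4, which encodes OX40, a costimulatory receptor of T cells, had 31, 34, 18 and 30 reads.

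Other receptors had few reads or none. Cd27, Tnfrsf8 and Tnfrsf17 had 0 reads in all 4 libraries. Tnfrsf13b and Tnfrsf18 had 2 reads each without LPS and none elsewhere, and Tnfrsf13c had at most 5. Tnfrsf19, which encodes TROY, a receptor of neural and hair follicle progenitors, had 7, 8, 4 and 5 reads. Tnfrsf14, which encodes the herpesvirus entry mediator HVEM, had 4, 6, 9 and 16 reads. It was highest at 20 h, 4.08-fold (1.32 to 16.8) against no LPS, at 0.578 CPM and therefore under the minimum of the rule. The leukocyte marker Cd53 had 14, 24, 24 and 34 reads, the leukocyte list summed to 9.69, 8.92, 9.64 and 10.6 CPM with none of its 8 genes at 0 in all libraries. Cd53 was the only 1 of the 6 measured genes of that list called at 20 h, and the list's median log2 ratio was 0.00. The part of leukocyte transcripts in the Tnfrsf14 difference was not tested.

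Set against the table as a whole, 3 of the 16 measured members were called at 8 h, Tnfsf12 higher and Cd40 and Tnfrsf9 lower, where 8.31% of all measured genes were called, 4.19% higher and 4.13% lower. At 16 h again 3 of 16 were called, Tnfrsf1b higher and Cd40 and Tnfrsf9 lower, against 8.23% of all genes (4.13% higher and 4.09% lower). At 20 h no member was called against no LPS, and 0.652% of all genes were. Between the libraries labelled 16 h and 8 h, 1 member was called, Tnfrsf1b, against 0.237% of all genes (0.161% higher). Tnfrsf1b counts among the 16 only through its level in the 16 h library. Its calls there are therefore not independent of the filter that made it a measured member. Between those labelled 20 h and 16 h, 2 were called, both higher, against 8.47% of all genes (4.63% higher). With 16 members, 1 gene more or less moves the members' share by 6.25 percentage points, so these counts do not set the family apart from the table. The comparisons with no LPS share that library, and those with 16 h share the 16 h library, so the calls are not independent.

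The counting interval excluded 1 in 12 of the 16 members at 8 h, 4 above and 8 below, and it did so in 70.3% of all measured genes. At 16 h it did so in 13 members, 5 above and 8 below (70.9% of all genes), and at 20 h in 2, Ltbr and Tnfrsf12a, both above (26.5%). It excluded 1 in 3 members between 16 h and 8 h (10.6%) and in 14 between 20 h and 16 h (71.4%). The median log2 ratio of the members was -0.27 at 8 h, -0.32 at 16 h and 0.07 at 20 h, and that of all measured genes was 0.00, 0.01 and 0.00. The median size of the log2 ratio, without its sign, was 0.45 in the members and 0.27 in all genes at 8 h, and 0.56 and 0.28 at 16 h.

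**Figure D3:**
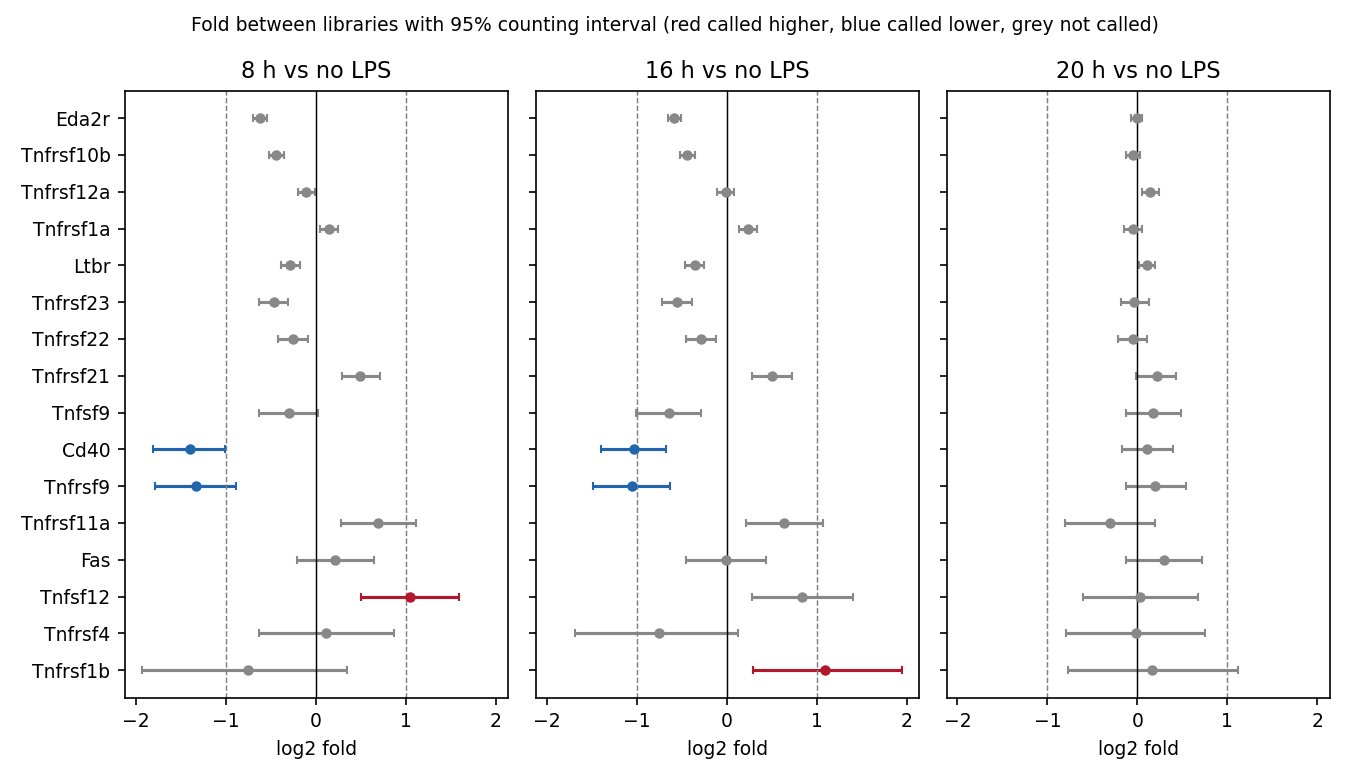
Folds of the 16 measured members against the library without LPS. Points are log2 folds and bars 95% counting intervals, with dashed lines at a fold of 2 in either direction. Cd40 and Tnfrsf9 lie beyond the lower line at 8 h and 16 h, Tnfsf12 beyond the upper line at 8 h and Tnfrsf1b at 16 h, and no member lies beyond a line at 20 h.

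**Figure D4:**
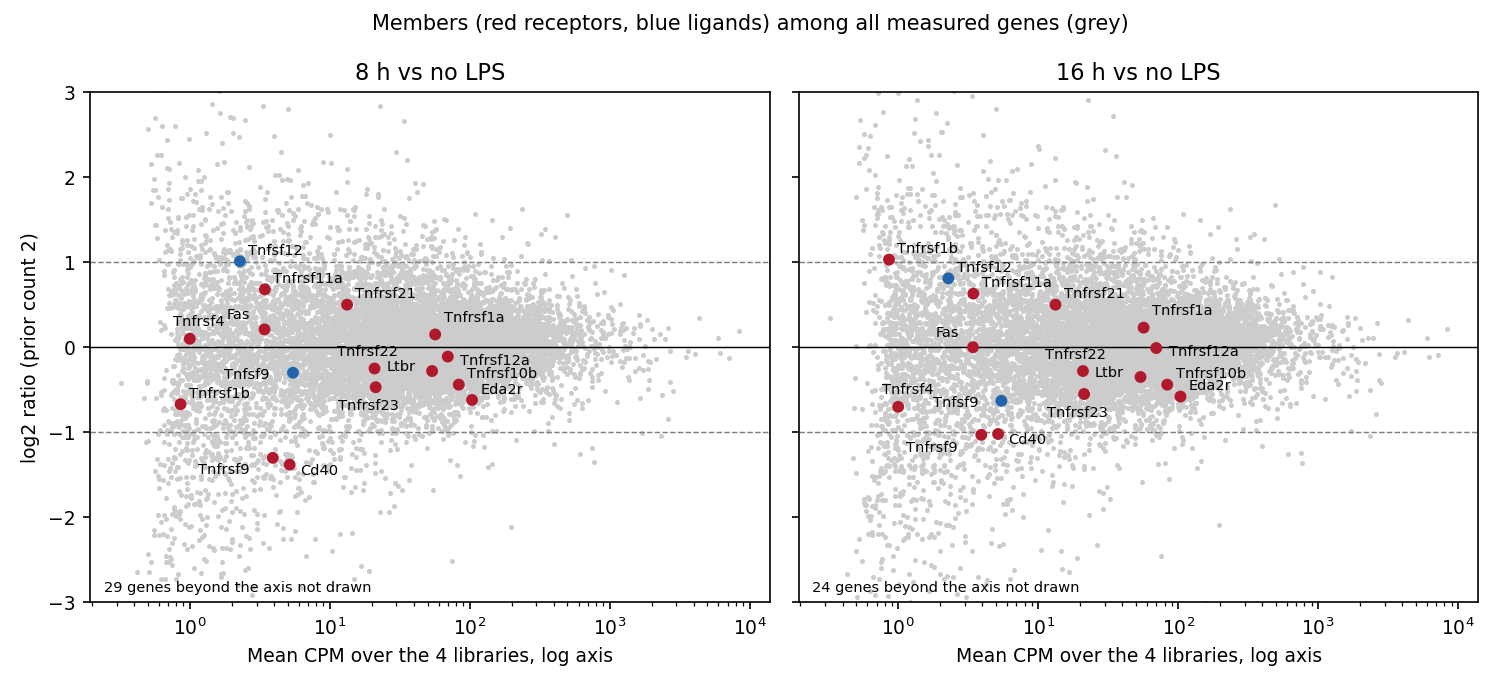
Members within the whole table at 8 h and 16 h. Each grey point is 1 of the 11803 measured genes, placed by its mean CPM (log axis) and its log2 ratio to the library without LPS; red points are receptors and blue points ligands, with 29 and 24 genes beyond the axis not drawn. The members are drawn against all measured genes and were not compared with genes of like level.

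A straight-line change over 0, 8, 16 and 20 h was tested with edgeR's quasi-likelihood test, which has 2 residual degrees of freedom here. The library without LPS entered as 0 h, so the slope does not separate LPS from the label hours, whose meaning is uncertain. None of the 16 members had an adjusted p (Benjamini-Hochberg over 11803 genes) under 0.05, the lowest being 0.9999, and none had an unadjusted p under 0.05. Of all genes 0% passed, and 43 had an unadjusted p under 0.05. That count rested on single libraries: without the library labelled 20 h it was 2110, with Eda2r and Tnfrsf10b among them, and without the library that had no LPS it was 540, with Cd40 and Tnfrsf9 among them. Without the 8 h or the 16 h library it was 18 or 24, with no member, and no gene passed after adjustment in any of these edgeR fits. DESeq2's likelihood ratio test called 0 members and 0 genes too, with 30 genes at an unadjusted p under 0.05. A course that turns back between 16 h and 20 h, as in Cd40, is not a straight line, and this test does not see it.

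Genes that carry the family's signals inside the cell were present and mostly not called, as was so for most measured genes. Of 42 listed adaptors, kinases and ubiquitin enzymes 38 were measured. Of all measured genes 8.31% were called at 8 h and 8.23% at 16 h, so a low count of calls does not set a list apart. At 8 h and again at 16 h 1 of the 38 was higher and 37 were not called, with a median log2 ratio of -0.02 and -0.03. The one called was Tnfaip3, which encodes A20, a ubiquitin-editing brake on TNF signalling, with 147, 330, 292 and 148 reads. Its folds were 2.21 (1.81 to 2.70) and 2.03 (1.66 to 2.49). Casp8, the initiator caspase of death receptors, had 1218, 1930, 1795 and 1199 reads, 1.56-fold (1.45 to 1.68) at 8 h. Cflar, which encodes its inhibitor c-FLIP, had 4544, 3372, 3282 and 4150 reads, 0.731-fold (0.699 to 0.764). Ripk3, the kinase of necroptosis, had at most 2 reads, while Mlkl, the membrane-breaking effector downstream of it, had 4203, 5061, 5021 and 4211. None of 10 measured NF-kB subunits and inhibitors was called (median 0.13 at 8 h), and Rel, with 362, 589, 587 and 358 reads, stood at 1.6-fold (1.40 to 1.83). None of 8 measured genes of shedding and processing was called (median -0.22 at 8 h), among them Adam17, the protease that releases TNF, at 0.879-fold (0.846 to 0.912).

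Genes that respond to TNF in many cells included several that were called. Of 27 listed 21 were measured. Called higher at 8 h were 5 of them and called lower 1, where 4.19% and 4.13% of all measured genes were called, and the median log2 ratio was 0.41. Those higher were the selectin gene Sele at 2.63-fold (2.25 to 3.09), the chemokine genes Cxcl1, Ccl2 and Ccl20 at 2.17-fold, 2.17-fold and 3.84-fold, and the early response gene Ier3 at 2.35-fold. Cxcl2, a neutrophil attractant, was lower, with 70 reads without LPS and 22 at 8 h, a fold of 0.309 (0.182 to 0.506). At 16 h 6 were higher and 15 not called (median 0.35; 4.13% of all genes were higher), the sixth being the matrix protease gene Mmp9, with 13, 16, 34 and 33 reads. At 20 h Mmp9 alone was called, at 2.59-fold (1.33 to 5.36), where 0.652% of all genes were called. The lists were chosen with earlier results of these data known, so their direction is not independent evidence.

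**Figure D5:**
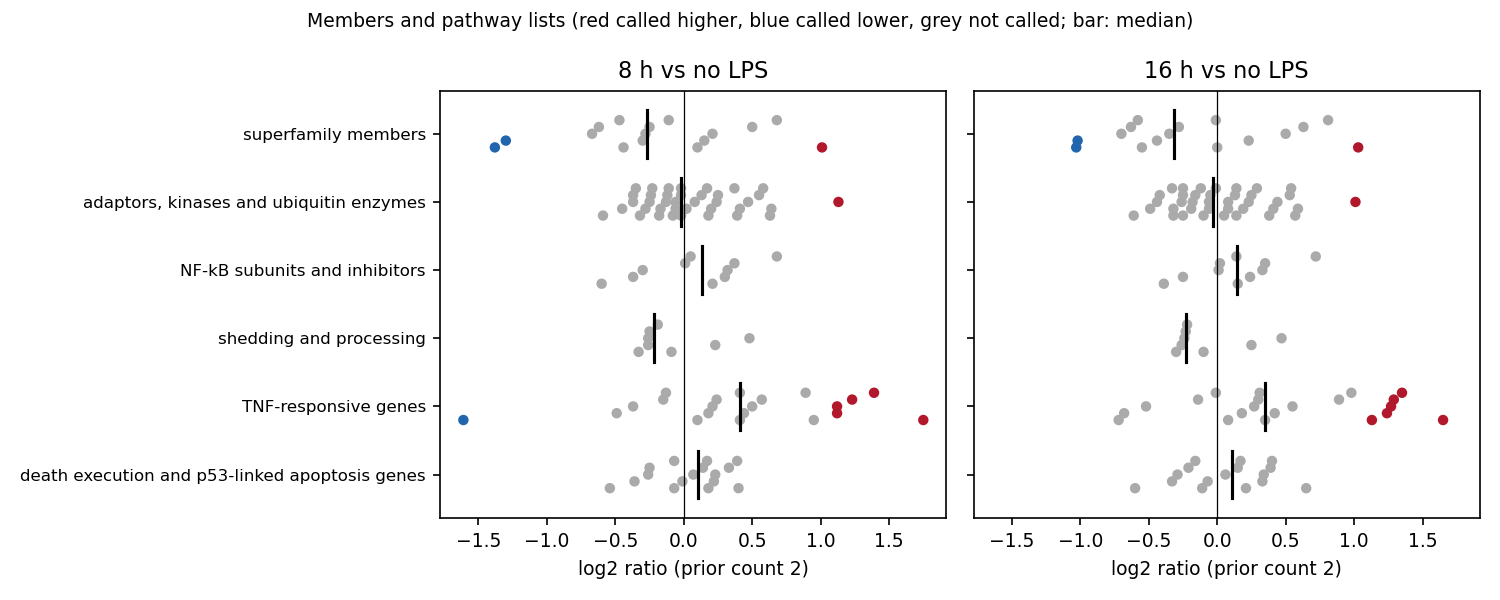
Members and pathway lists at 8 h and 16 h against no LPS. Each point is 1 measured gene placed by its log2 ratio, red for called higher and blue for called lower, and the black bar is the median of the row; vertical scatter only separates points. The median of the TNF-responsive genes lies at 0.41 at 8 h, and that of the members at -0.27.

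By position, 22 of the 44 members lay in 9 clusters with gaps of at most 100 kb, and 8 of these 22 were measured. In 3 clusters no member was measured, among them that of Tnf, Lta and Ltb, and the other 6 held both measured and unmeasured members. The measured neighbours Ltbr and Tnfrsf1a had means of 22.9 and 21.9 RPKM. Tnfrsf22 and Tnfrsf23, close copies whose reads are partly uncertain, had 4.95 and 5.39 RPKM. Other pairs of genes were not compared. On chromosome 6, from 125232622 to 125362484, Ltbr and Tnfrsf1a were among the 5 most abundant members per length while Cd27, at the start of the cluster, had 0 reads. On chromosome 17, from 57105325 to 57194177, Tnfsf9 was measured and Cd70 and Tnfsf14 had 0 reads. On chromosome 4, Tnfrsf1b had reads in every library and its neighbour Tnfrsf8 had none.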

How the data were processed

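RNA-seq libraries from 4 samples, 1 per label, were analysed. The values the authors deposited are raw read counts by gene, unnormalised, made with STAR and featureCounts on mm10, per the submitters' processing notes. Versions, annotation, strand use and the treatment of reads shared between genes are not stated in those notes or the labels. Columns were matched to samples by title. Symbols came from a gene name table by stable identifier, which matched 38872 of 39056 identifiers (99.5%), and exon lengths and coordinates, counted from 1, from GENCODE M21.

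Depth was 28060685 reads without LPS, then 28905776, 27843147 and 27566454 for the LPS labels by hour. Without molecular identifiers, intervals and floors (3 reads) cover counting error only. TMM scaling used edgeR 4.0.16 in R 4.3.3. Log2 ratios used a prior count of 2, and intervals the Clopper-Pearson method at 95%. The linear trend used glmQLFit and glmQLFTest on the measured genes, and DESeq2 1.42.0 as an alternative. The interval was tried on counts simulated with counting error only, and the trend test on simulated straight-line changes. Neither simulation held a course that turns back, as in Cd40, and that for the interval had no spread between animals. All measured members are named, and called genes of the pathway lists. Casp8, Cflar, Rel, Ripk3, Mlkl, Adam17, Cd53, Col3a1, Dcn, Pdgfra, S100a8, Adgre1, Csf1r and Cd68 were named after their values were seen. Of 6 pathway lists, that of death execution and that of family genes outside the rule are given under other observations. The results of all 9 marker lists are in the report. The members, lists and rules were chosen with earlier results of these data known. Shared 50-base stretches were counted in GENCODE M21 transcripts on both strands, and promoter windows came from RefSeq (GRCm38.p6).

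The alternatives were other scalings, no minimum or 10 CPM, folds of 1.5 and 4, a wider counting interval, prior counts of 0.5 and 10, and other settings of the trend.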

Additional observations from a re-analysis of the deposited data

How the results depend on the processing

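Scaling by library totals, DESeq2 size factors or upper quartiles left the members called the same in all 5 comparisons. A wider counting interval, at the higher confidence level tried, called 2 members at 16 h against the library without LPS, Cd40 and Tnfrsf9, and lost Tnfrsf1b; elsewhere it called the same members. A minimum of 10 CPM, or a fold threshold of 4, gave 0 called members in each of the 5 comparisons. Every called member stood under 10 CPM, and none reached a fold of 4, which shows the cause of both. With a fold threshold of 1.5 the members called were 5 at 8 h and 6 at 16 h against no LPS (19.9% and 20.0% of all measured genes), 0 at 20 h (2.0%), 2 between 16 h and 8 h (0.779%) and 6 between 20 h and 16 h (20.7%). Without a minimum 1 member, Tnfrsf14, was called at 20 h against no LPS and no count elsewhere moved. All 240 refitted member folds and all 160 refitted log2 ratios stayed within the counting interval of the reported value. The trend called 0 members in all 9 alternatives. No paired analysis was possible because each label has 1 library. Leaving out a library was possible in the trend only, with 1 residual degree of freedom; the lowest adjusted p of a member then ran from 0.2394 to 1, in edgeR. At this depth a gene with 0 reads could have stood at up to 0.108 CPM, which limits what can be said of the 9 members without reads.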

Other observations

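All 16 listed genes of death execution and p53-linked apoptosis were measured and none was called at 8, 16 or 20 h against no LPS, with a median log2 ratio of 0.11, 0.10 and 0.00. Of all measured genes 8.31%, 8.23% and 0.652% were called in these comparisons. Diablo, which encodes an inhibitor of apoptosis inhibitors, had 2462, 1720, 1589 and 2216 reads without LPS and at 8, 16 and 20 h, and was lowest at 16 h, at 0.658-fold (0.618 to 0.702). Bbc3, which encodes the p53 effector PUMA, had 545, 627, 705 and 922 reads and was highest at 20 h, at 1.73-fold (1.55 to 1.92). Diablo and Bbc3 were chosen after their values were seen.

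Of the family genes outside the symbol rule 3 of the 5 found in the table were measured. None was called against no LPS, where the shares of all measured genes called were those given above. Relt, a receptor of the family without a number in its symbol, had 159, 194, 176 and 148 reads in that order. Rell1, which encodes a protein that binds RELT, had 882, 1442, 1439 and 875 reads, so that the middle libraries were higher, at 1.61-fold (1.48 to 1.75) and 1.66-fold (1.53 to 1.81). Rell2 had between 20 and 29 reads.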
